A study of Mus musculus with 20 samples.

Results

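The subject is the gene sets named for microRNAs in the gene set enrichment reports of a melanoma study in mice: 13 sets of reported or predicted targets of numbered microRNAs, 1 set of microRNA biogenesis genes, and 3 sets whose names end in DN. They were found by name alone, as every listed set whose name holds MIR with a number, LET7, MICRORNA or MIRNA, and no let-7 set was among them. They number 17 of the 3883 sets listed in each comparison of animals and 17 of the 3871 listed for the cell lines. The topic was selected on scores of these sets, which were already known, so every score and q-value below is a description and supports no further inference about the list.

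RNA sequencing was done on myeloid cells from bone marrow and spleen of adult C57BL/6 mice and on cultured melanoma lines. The myeloid cells came from B16F10-bearing marrow in 3 libraries, YUMM3.3-bearing marrow in 2, healthy marrow in 3, B16F10-bearing spleen in 2, YUMM3.3-bearing spleen in 2 and healthy spleen in 2. Lines YUMM3.3 and B16F10 gave 3 libraries each. B16F10 is a pigmented mouse melanoma line long passaged through syngeneic animals, and YUMM3.3 is a mouse melanoma line from a genetically engineered C57BL/6 mouse. Every myeloid library, the healthy ones included, was prepared by depleting cells that carry CD3e, a T cell receptor component, which leaves B cells, erythroid cells and platelets as well as myeloid cells. Which animal gave which library is not stated, and whether 1 mouse gave both tissues is unknown.

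MicroRNAs are short RNAs cut from hairpin transcripts by Drosha in the nucleus and Dicer in the cytoplasm, then loaded into Argonaute proteins. The seed at the microRNA's start pairs with sites in the 3′ untranslated regions of messenger RNAs, and the bound complex represses translation and brings on deadenylation and decay. In blood-forming tissue several of these microRNAs take part in the balance of proliferation and differentiation. The microRNAs themselves were not measured here: the values concern messenger RNAs grouped as targets in other studies, most of them of human cells, and a target set can move for reasons unrelated to its microRNA.

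For orientation, the mouse mature microRNAs behind the sets that passed the threshold in any comparison, or that share a seed with such a set, are shown from the RefSeq table of build GRCm38.p6, with seed bases 2 to 8 in capitals.
miR-21a-5p: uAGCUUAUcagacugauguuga
miR-192-5p: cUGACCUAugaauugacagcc
miR-34a-5p: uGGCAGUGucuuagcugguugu
miR-34b-5p: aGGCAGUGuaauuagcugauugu
miR-15a-5p: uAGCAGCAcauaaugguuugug
miR-16-5p: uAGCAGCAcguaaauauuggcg
miR-30a-5p: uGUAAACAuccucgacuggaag
miR-30c-5p: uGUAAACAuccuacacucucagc
miR-30e-5p: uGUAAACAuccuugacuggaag
miR-133b-3p: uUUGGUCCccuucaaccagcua
The shared capitals show 3 seed families: miR-34a with miR-34b, miR-15a with miR-16, and the miR-30 members. The miR-21 mature sequence lies at chr11:86584120-86584141 on the minus strand, miR-192 at chr19:6264857-6264877 on the plus strand, miR-34a at chr4:150068473-150068494 on the plus strand and miR-34b at chr9:51103610-51103632 on the minus strand. The miR-15a sequence, at chr14:61632075-61632096, and 1 of the 2 miR-16 copies, at chr14:61631936-61631957, lie close together on the minus strand. The set names give MIR133 and MIR30 with no member, so the sequences shown for them stand for the family. Of 19 mature names looked up, sequences were taken from the table for 13. The others, miR-302a-3p, miR-1a-3p, miR-133a-3p, miR-30b-5p, miR-30d-5p and miR-34c-5p, are named only.

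Each set has 1 normalized enrichment score (NES) per comparison in the authors' deposited table. The NES says how far the genes of a set gather at one end of a list of all genes ranked by difference between 2 groups, scaled for set size. Here it is signed so that a positive NES means that the set lay toward the first-named group. A set is called higher or lower where the deposited false discovery rate (FDR) q-value is below 0.05. With 1 value per set and comparison there is no spread over libraries to give, the sequencing depth behind the values is unknown, and sets can share genes.

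The microRNA sets had no single direction over the comparisons. As read from the order of the group names, their direction differed with tumour line and tissue. Most target sets scored toward healthy marrow when YUMM3.3-bearing marrow was compared with it, and most scored toward YUMM3.3-bearing spleen when that was compared with healthy spleen. Of 119 pairs of a set and a comparison, 25 passed the threshold in the authors' deposited table, from 9 sets, and 8 sets passed in no comparison. That is 21% of the pairs, near the 17.3% of pairs that passed over all listed sets and comparisons. At the stricter family-wise p below 0.05, 6 pairs from 3 sets remained, the sets for miR-21, miR-192 and miR-34b/c.

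**Figure D1:**
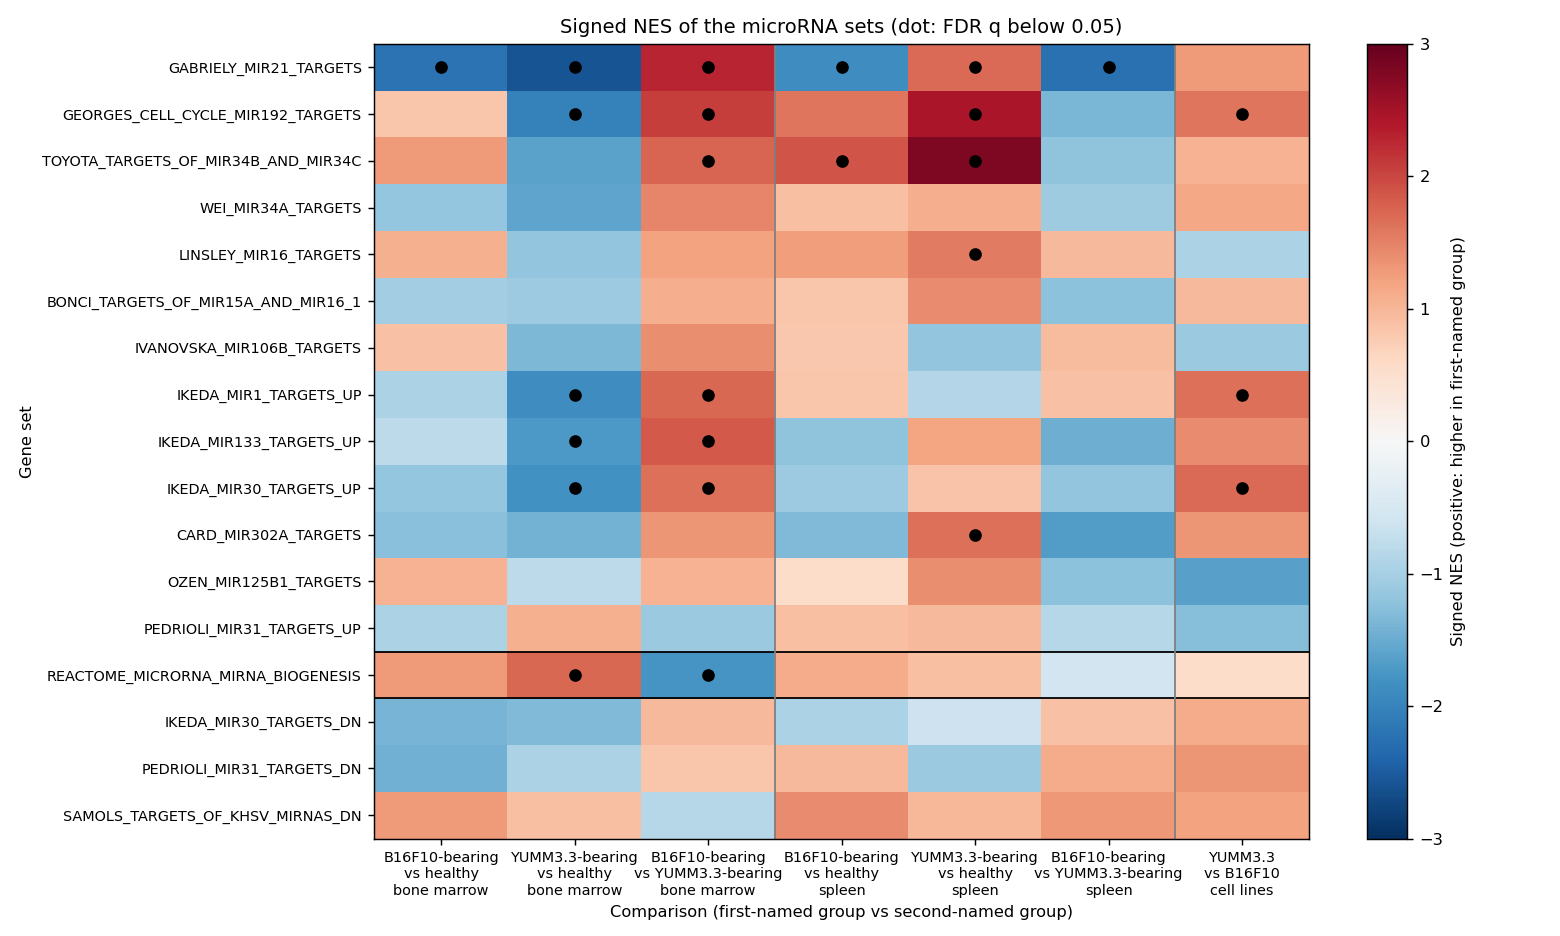
Signed NES of the 17 microRNA sets (rows) in the 7 comparisons (columns), from the authors' deposited table; red lies toward the first-named group, blue toward the second, and a dot marks an FDR q below 0.05. The column of YUMM3.3-bearing against healthy marrow is mostly blue (12 of 13 target sets) and that of YUMM3.3-bearing against healthy spleen mostly red (11 of 13).

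The counts below take the 14 sets whose names do not end in DN, each beside the share of all listed sets called in that direction. For B16F10-bearing against healthy marrow, 0 of 14 were higher, beside 20.1% of all listed sets, and 1 was lower, beside 5.00%. For YUMM3.3-bearing against healthy marrow, 1 was higher, beside 9.68%, and 5 were lower, beside 6.52%. For B16F10-bearing against YUMM3.3-bearing marrow, 6 were higher, beside 8.09%, and 1 was lower, beside 8.40%. In marrow, then, the called microRNA sets lay mainly on the low side of the YUMM3.3-bearing libraries, which the last 2 of these comparisons share.

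In spleen, 1 of 14 sets was higher in B16F10-bearing than in healthy animals, beside 16.6% of all listed sets, and 1 was lower, beside 1.60%. For YUMM3.3-bearing against healthy spleen, 5 were higher, beside 15.6%, and 0 were lower, beside 5.31%. For B16F10-bearing against YUMM3.3-bearing spleen, 0 were higher, beside 9.63%, and 1 was lower, beside 1.47%. For the YUMM3.3 against the B16F10 line, 3 were higher, beside 11.8%, and 0 were lower, beside 1.47%. The microRNA sets were also larger than most: their median size was 79.5 genes, against 44 over all listed sets in the comparisons of animals.

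**Figure D2:**
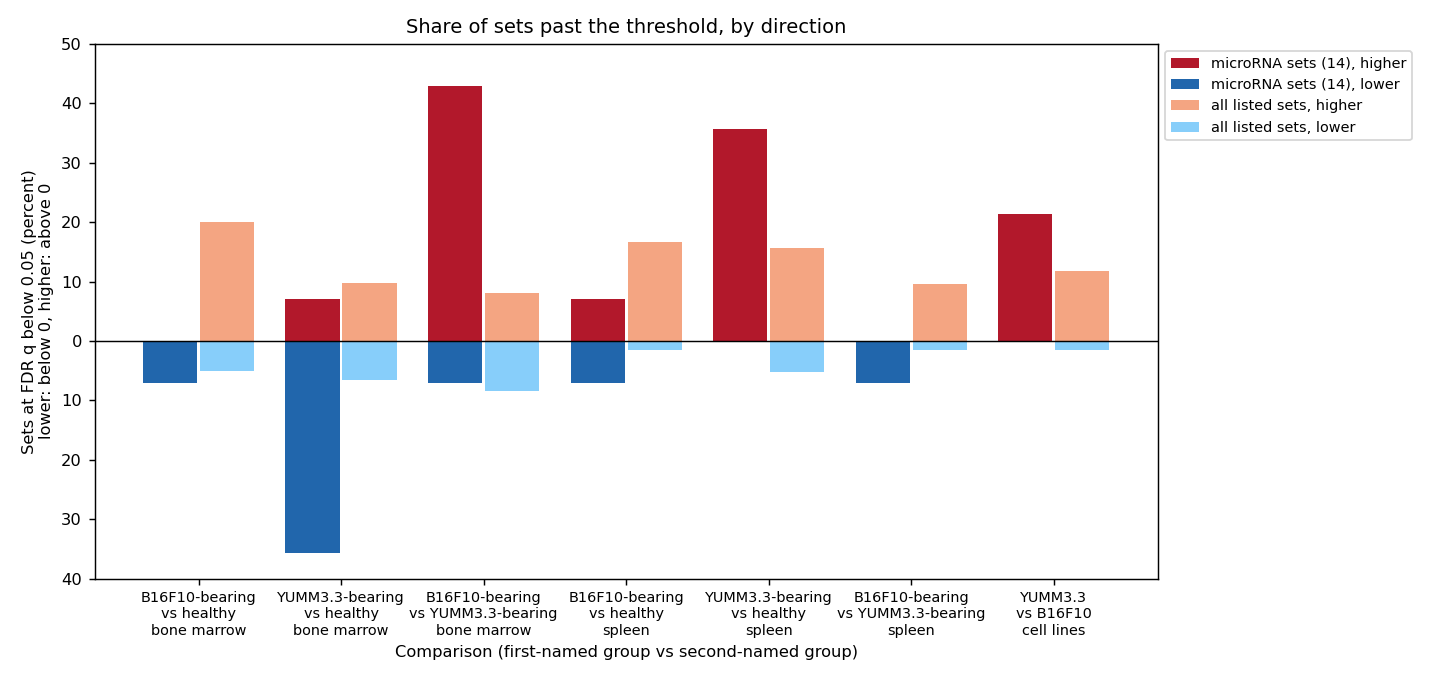
Percent of sets with FDR q below 0.05 in each comparison, drawn above 0 where higher and below 0 where lower in the first-named group, for the 14 microRNA sets not ending in DN (dark, left) and all listed sets (pale, right). The longest dark bars are the 6 sets higher in B16F10-bearing than YUMM3.3-bearing marrow, the 5 lower in YUMM3.3-bearing than healthy marrow and the 5 higher in YUMM3.3-bearing than healthy spleen; 1 set makes up 7.14% of the dark bars.

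The medians moved in the same way. The 13 target sets had a median NES of -0.94 in B16F10-bearing against healthy marrow (0.96 over all listed sets), -1.57 in YUMM3.3-bearing against healthy marrow (0.74 over all) and 1.47 in B16F10-bearing against YUMM3.3-bearing marrow (0.72 over all). In spleen the medians were 0.82 for B16F10-bearing against healthy animals (1.09 over all), 1.40 for YUMM3.3-bearing against healthy animals (-0.69 over all) and -1.21 for B16F10-bearing against YUMM3.3-bearing animals (1.04 over all). With 1 set kept per publication the median of the sets not ending in DN in B16F10-bearing against healthy marrow was -0.0614, against -0.86 over all 14. In the cell lines the median was 1.17, against 1.08 over all listed sets. All listed sets were split near evenly by sign in some comparisons, so the sign of their median there says little. In YUMM3.3-bearing against healthy marrow 53.1% of them were positive, beside 7.69% of the 13 target sets. The shares were 51.7% beside 92.3% in B16F10-bearing against YUMM3.3-bearing marrow, and 48.3% beside 84.6% in YUMM3.3-bearing against healthy spleen.

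The set for miR-21, GABRIELY_MIR21_TARGETS, passed the threshold in more comparisons than any other of the 17 sets, 6 of 7. It holds 244 listed genes and comes from work on glioma, where miR-21 is known as an oncogenic microRNA; miR-21 is also abundant in myeloid cells. Its genes were lower in marrow of both tumour-bearing groups. In the authors' deposited table its NES was -2.21 for B16F10-bearing against healthy marrow (q = 8.18e-05) and -2.59 for YUMM3.3-bearing against healthy marrow (q listed as 0). By size of NES these placed it 19th of the 1701 sets on the healthy side of the B16F10 comparison and 3rd of 1823 on that of the YUMM3.3 comparison. Directly between the tumours, the miR-21 set was higher in B16F10-bearing than in YUMM3.3-bearing marrow, with an NES of 2.28 (q = 7.05e-05) in the authors' deposited table.

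In spleen the miR-21 set went in opposite directions in the 2 tumour-bearing groups. The authors' deposited table gave it an NES of -1.87 for B16F10-bearing against healthy spleen (q = 0.0285) and 1.71 for YUMM3.3-bearing against healthy spleen (q = 0.0168). By size of NES the first ranked 42nd of the 983 sets on the healthy side and the second only 492nd of the 1876 on the YUMM3.3 side. Neither passed at the stricter family-wise p below 0.05. Set directly against each other, B16F10-bearing spleen was lower than YUMM3.3-bearing spleen, with an NES of -2.23 (q = 0.000548) that ranked 6th of the 1057 sets on the YUMM3.3 side. The share of its genes that lay before the peak of the running score, the leading edge, ran between 36% and 45% over the animal comparisons. For the YUMM3.3 against the B16F10 line its NES of 1.27 did not pass (q = 0.241).

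The next group of sets belongs to microRNAs known for restraining the cell cycle. MicroRNA-192 and the miR-34 family act downstream of the tumour suppressor p53, miR-15a and miR-16 repress cyclins and are lost in a human leukaemia, and miR-106b works in the opposite sense by repressing the cell cycle inhibitor p21. GEORGES_CELL_CYCLE_MIR192_TARGETS, with 55 cell cycle genes, passed in 4 comparisons. In the authors' deposited table it was lower in YUMM3.3-bearing than in healthy marrow (NES -2.04, q = 0.00416) and higher in B16F10-bearing than in YUMM3.3-bearing marrow (NES 2.08, q = 0.00214). It was higher in YUMM3.3-bearing than in healthy spleen (NES 2.44, q listed as 0) and in the YUMM3.3 than in the B16F10 line (NES 1.60, q = 0.0452).

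For B16F10-bearing against healthy spleen the miR-192 set stood just outside the threshold, with an NES of 1.62 and q = 0.0508 in the authors' deposited table. Its 2 other scores did not pass: 0.82 for B16F10-bearing against healthy marrow (q = 0.82) and -1.37 for B16F10-bearing against YUMM3.3-bearing spleen (q = 0.296). More than 50% of its genes were in the leading edge in the 2 marrow comparisons that involve YUMM3.3-bearing animals, at 56% against healthy and 55% in the B16F10-bearing contrast.

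TOYOTA_TARGETS_OF_MIR34B_AND_MIR34C is the largest of the 17 sets, at 335 genes, and comes from colorectal cancer cells given these microRNAs. It was higher in spleens of both tumour-bearing groups. The authors' deposited table gave it an NES of 1.88 in B16F10-bearing spleen (q = 0.00349) and 2.80 in YUMM3.3-bearing spleen (q listed as 0), each against healthy spleen, and the second was the largest positive NES of any of the 17 sets. It was also higher in B16F10-bearing than in YUMM3.3-bearing marrow (NES 1.76, q = 0.0283). Its other scores in the authors' deposited table did not pass: 1.28 in B16F10-bearing against healthy marrow (q = 0.194), -1.62 in YUMM3.3-bearing against healthy marrow (q = 0.0651), -1.21 in B16F10-bearing against YUMM3.3-bearing spleen (q = 0.444) and 1.04 in the cell lines (q = 0.531).

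The other set of this seed family, WEI_MIR34A_TARGETS with 123 genes, passed nowhere. Its NES ran between -1.57 (q = 0.0803), for YUMM3.3-bearing against healthy marrow, and 1.47 (q = 0.117), for B16F10-bearing against YUMM3.3-bearing marrow, in the authors' deposited table. Its sign was that of the miR-34b/c set in 6 of the 7 comparisons, the exception being B16F10-bearing against healthy marrow, where it was -1.16 (q = 0.395) against 1.28 for the miR-34b/c set.

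Of the 2 sets of the miR-15/16 seed family, LINSLEY_MIR16_TARGETS (165 genes) passed once. It was higher in YUMM3.3-bearing than in healthy spleen, with an NES of 1.57 at q = 0.0477 in the authors' deposited table, just inside the threshold, and its other scores lay between -1.19 and 1.25. BONCI_TARGETS_OF_MIR15A_AND_MIR16_1, with 82 genes in the animal comparisons, had its largest score there too, 1.42, which did not pass (q = 0.118), and its lowest, -1.22 (q = 0.430), in B16F10-bearing against YUMM3.3-bearing spleen. The 2 sets had the same sign in 4 of 7 comparisons.

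IVANOVSKA_MIR106B_TARGETS, with 77 genes, passed in none of the 7 comparisons. Its largest scores in the authors' deposited table were 1.40 in B16F10-bearing against YUMM3.3-bearing marrow (q = 0.158) and -1.35 in YUMM3.3-bearing against healthy marrow (q = 0.197). It was 1 of only 2 target sets with a negative score in YUMM3.3-bearing against healthy spleen, at -1.19 (q = 0.327), the other being the miR-1 set. In the cell lines it scored -1.12 (q = 0.568).

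Proliferation sets moved beside these cell cycle target sets, and their part in the result was not tested. KONG_E2F3_TARGETS, targets of a transcription factor that drives entry into DNA synthesis, had in the authors' deposited table an NES of 1.82 in B16F10-bearing against healthy marrow (q = 0.0102), -1.66 in YUMM3.3-bearing against healthy marrow (q = 0.0507) and 1.93 in B16F10-bearing against YUMM3.3-bearing marrow (q = 0.00798). In spleen the E2F3 set scored 2.84 in B16F10-bearing and 3.37 in YUMM3.3-bearing animals, each against healthy animals with q listed as 0, and 1.49 between the tumours (q = 0.13). FISCHER_G2_M_CELL_CYCLE, genes of the phases before and during division, was lower in YUMM3.3-bearing than in healthy marrow (NES -2.17, q = 0.000904) and higher in YUMM3.3-bearing than in healthy spleen (NES 3.24, q listed as 0), by the authors' deposited table. The miR-192 and miR-34b/c sets had the sign of both proliferation sets in every comparison but B16F10-bearing against YUMM3.3-bearing spleen.

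The miR-21 set parted from the proliferation sets in more comparisons. In the authors' deposited table FISCHER_G2_M_CELL_CYCLE scored 1.87 in B16F10-bearing against healthy marrow (q = 0.00607) and 2.58 in B16F10-bearing against healthy spleen (q listed as 0), where the miR-21 set scored -2.21 and -1.87. A B cell set was on the side of the miR-21 set there: KEGG_B_CELL_RECEPTOR_SIGNALING_PATHWAY was lower in B16F10-bearing marrow (NES -1.87, q = 0.0133), YUMM3.3-bearing marrow (NES -1.72, q = 0.0366) and B16F10-bearing spleen (NES -2.25, q = 0.000128), each against healthy tissue, in the authors' deposited table. In YUMM3.3-bearing against healthy spleen, where the miR-21 set was higher, the B cell set scored 0.72 (q = 0.962), and B16F10-bearing was lower than YUMM3.3-bearing spleen (NES -1.85, q = 0.0321). In B16F10-bearing against YUMM3.3-bearing marrow the B cell receptor set scored 1.53 (q = 0.0913), where the miR-21 set scored 2.28, and in the cell lines it scored -0.86 (q = 0.896), where the miR-21 set scored 1.27. The other B cell set, HADDAD_B_LYMPHOCYTE_PROGENITOR, was lower in B16F10-bearing than in healthy marrow (NES -2.74, q listed as 0) in the authors' deposited table and passed in no other comparison. Against healthy tissue it scored -1.65 in YUMM3.3-bearing marrow (q = 0.0544), -1.63 in B16F10-bearing spleen (q = 0.117) and 1.12 in YUMM3.3-bearing spleen (q = 0.437). In B16F10-bearing against YUMM3.3-bearing animals it scored -1.14 in marrow (q = 0.435), the opposite sign to the miR-21 set, and -1.73 in spleen (q = 0.0713). A T cell receptor set, described below, also had the sign of the miR-21 set in every comparison but YUMM3.3-bearing against healthy spleen. The part of B cells and T cells in the miR-21 result was not tested. In bulk samples, fewer cells of a type and less RNA per cell cannot be told apart.

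**Figure D3:**
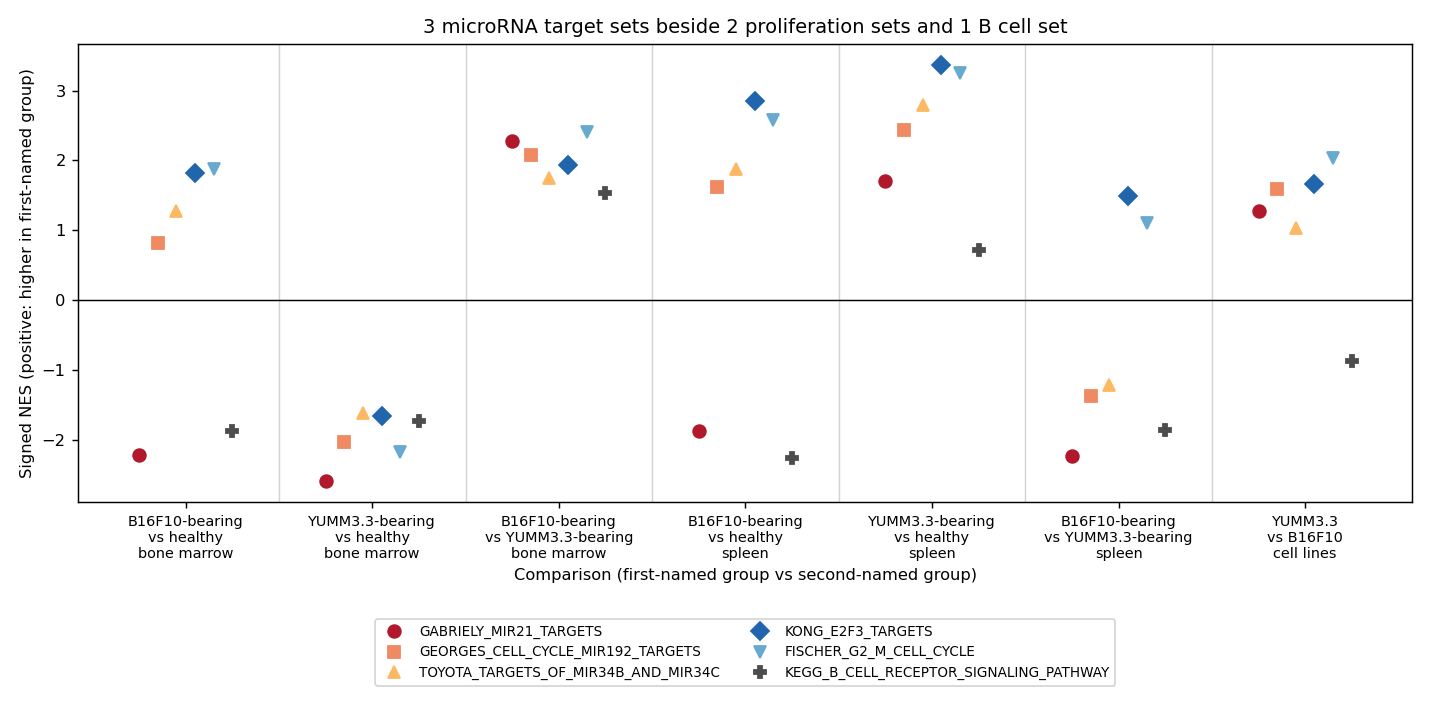
Signed NES in each comparison, from the authors' deposited table, of the miR-21, miR-192 and miR-34b/c target sets beside 2 proliferation sets (KONG_E2F3_TARGETS, FISCHER_G2_M_CELL_CYCLE) and the KEGG B cell receptor set; each point is 1 set. The miR-192 and miR-34b/c points lie on the side of the proliferation points except in B16F10-bearing against YUMM3.3-bearing spleen, and the miR-21 point lies with the B cell point, below -1.8, in both comparisons of B16F10-bearing with healthy tissue.

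Other sets for cell types also differed between the groups, in the authors' deposited table. KEGG_T_CELL_RECEPTOR_SIGNALING_PATHWAY was lower in B16F10-bearing than in healthy spleen (NES -2.37, q listed as 0) and passed in no other comparison. In YUMM3.3-bearing against healthy spleen, where the miR-21 set was higher, this T cell receptor set scored -1.42 (q = 0.157). BROWN_MYELOID_CELL_DEVELOPMENT_UP, genes that rise as myeloid cells mature, was higher in B16F10-bearing animals than in healthy ones in marrow (NES 2.62, q listed as 0) and spleen (NES 2.08, q = 9.95e-05), and higher in B16F10-bearing than in YUMM3.3-bearing spleen (NES 2.38, q listed as 0). WELCH_GATA1_TARGETS, an erythroid set, was higher in B16F10-bearing than in healthy animals in marrow (NES 1.93, q = 0.00366) and spleen (NES 2.31, q listed as 0), and higher in B16F10-bearing than in YUMM3.3-bearing spleen (NES 2.34, q listed as 0). A set of platelet-specific genes was lower in B16F10-bearing than in healthy marrow (NES -1.75, q = 0.0361) and in YUMM3.3-bearing than in healthy spleen (NES -2.51, q listed as 0), by the authors' deposited table. It was higher in B16F10-bearing than in YUMM3.3-bearing spleen (NES 2.23, q = 4.68e-05) and in the YUMM3.3 than in the B16F10 line (NES 1.77, q = 0.00861). HADDAD_T_LYMPHOCYTE_AND_NK_PROGENITOR_UP passed only in B16F10-bearing against healthy marrow, where it was lower (NES -1.69, q = 0.0497). Its sign was opposite to that of the miR-21 set in every spleen comparison. The deposited reports hold no gene levels, so the myeloid identity of the libraries was not checked against marker genes, and the part of these cell types in the microRNA results was not tested.

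The next group came from a study of heart muscle: IKEDA_MIR1_TARGETS_UP, IKEDA_MIR133_TARGETS_UP and IKEDA_MIR30_TARGETS_UP hold predicted targets that were up in hypertrophic mouse hearts. MicroRNA-1 and miR-133 are muscle microRNAs, whereas the miR-30 family is widely expressed. All 3 sets were lower in YUMM3.3-bearing than in healthy marrow, with NES of -1.87 for miR-1 (q = 0.0151), -1.73 for miR-133 (q = 0.0343) and -1.81 for miR-30 (q = 0.0226) in the authors' deposited table. All 3 were higher in B16F10-bearing than in YUMM3.3-bearing marrow, which shares the YUMM3.3-bearing libraries: 1.73 for miR-1 (q = 0.0322), 1.84 for miR-133 (q = 0.0159) and 1.66 for miR-30 (q = 0.0492), by the authors' deposited table. These 3 sets come from 1 study and hold 52, 38 and 97 genes, so they are not independent of each other.

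In B16F10-bearing against healthy marrow the heart sets did not pass, with scores from -1.16 to -0.78 in the authors' deposited table. In spleen they passed in none of the 3 comparisons, and their scores ran from -1.22 to 1.19 against healthy animals. Between the spleens of the tumour-bearing groups the miR-133 set had the lowest score of the 3, -1.46 (q = 0.227), and the miR-1 set the highest, 0.89 (q = 0.785). In the cell lines the miR-1 set (NES 1.65, q = 0.0283) and the miR-30 set (NES 1.69, q = 0.0203) were higher in YUMM3.3 than in B16F10 cells in the authors' deposited table, and the miR-133 set scored 1.41 (q = 0.134).

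The remaining target sets passed once or not at all. CARD_MIR302A_TARGETS, 73 genes linked to a microRNA of embryonic stem cells, was higher in YUMM3.3-bearing than in healthy spleen (NES 1.64, q = 0.0274) in the authors' deposited table. The miR-302a set had the opposite sign in the other 2 spleen comparisons, -1.33 in B16F10-bearing against healthy animals (q = 0.315) and -1.67 in B16F10-bearing against YUMM3.3-bearing animals (q = 0.102). In marrow it scored -1.24 in B16F10-bearing and -1.42 in YUMM3.3-bearing against healthy animals (q = 0.311 and 0.149). OZEN_MIR125B1_TARGETS, 19 genes for a microRNA known to hold back myeloid differentiation, passed nowhere; its largest scores were -1.63 in the cell lines (q = 0.0848) and 1.40 in YUMM3.3-bearing against healthy spleen (q = 0.132). PEDRIOLI_MIR31_TARGETS_UP, genes that rose rather than fell with miR-31 in lymphatic endothelial cells, is a target set by its name only. It passed nowhere and ran between -1.27 and 1.07 in the authors' deposited table, with the lowest score in the cell lines (q = 0.415); it was the only 1 of the 13 with a positive score in YUMM3.3-bearing against healthy marrow.

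The 3 sets ending in DN passed in none of the 7 comparisons at an FDR q below 0.05, and at an unadjusted nominal p below 0.05 there was 1 of 3 in B16F10-bearing against healthy marrow and 1 of 3 in the cell lines, where 41.6% and 31.6% of all listed sets were below it. DN means different things in them: in the miR-31 set, genes that fell with the microRNA in lymphatic endothelium, and in the miR-30 set, predicted targets that fell in hypertrophic hearts. PEDRIOLI_MIR31_TARGETS_DN, with 318 genes in the animal comparisons, ran between -1.44 (q = 0.16) in B16F10-bearing against healthy marrow and 1.33 (q = 0.187) in the cell lines, by the authors' deposited table. IKEDA_MIR30_TARGETS_DN, with 20 genes, ran between -1.38 (q = 0.196) in B16F10-bearing against healthy marrow and 1.11 (q = 0.425) in the cell lines. SAMOLS_TARGETS_OF_KHSV_MIRNAS_DN concerns microRNAs of a human herpesvirus. It scored between -0.86 and 1.41 in the authors' deposited table, positive in 6 of 7 comparisons. Its NES was 1.27 (q = 0.197) in B16F10-bearing against healthy marrow and 1.30 (q = 0.272) in B16F10-bearing against YUMM3.3-bearing spleen.

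Where a microRNA had both an UP and a DN set, the 2 did not simply mirror each other. The miR-30 sets had the same sign in 5 of 7 comparisons and the miR-31 sets in 2 of 7. In the YUMM3.3-bearing against healthy marrow comparison the miR-30 UP set scored -1.81 and the DN set -1.33 (q = 0.205) in the authors' deposited table, and the miR-31 UP set 1.07 and the DN set -0.94.

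Marrow and spleen comparisons share no library, so their scores can be set side by side, with the spleen score first. For B16F10-bearing against healthy animals, 9 of the 13 target sets had the same sign in both tissues, against 70.2% of all listed sets; the other 4, the sets for miR-34a, miR-15a/16-1, miR-1 and miR-31, were positive in spleen and negative in marrow. For YUMM3.3-bearing against healthy animals, 3 of 13 had the same sign, and the other 10 were positive in spleen and negative in marrow. That pattern held for 76.9% of the target sets, against 26.1% of all listed sets. These counts rest on the direction read from the order of the group names: if every comparison of 1 tissue were turned round, 10 of 13 sets would share a sign in the YUMM3.3-bearing contrast and 4 of 13 in the B16F10-bearing contrast. Across the 13 sets Pearson's r between spleen and marrow was 0.70 for B16F10-bearing and -0.09 for YUMM3.3-bearing animals, each against healthy ones (0.56 and -0.17 over all listed sets), given as a description since sets can share genes.

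The median difference of spleen minus marrow for YUMM3.3-bearing against healthy animals was 2.67 NES units over the 13 sets, against -0.0954 over all listed sets. The 3 sets farthest apart were those for miR-192, at 2.44 in spleen and -2.04 in marrow, for miR-34b/c, at 2.80 in spleen and -1.62 in marrow, and for miR-21, at 1.71 in spleen and -2.59 in marrow, in the authors' deposited table. Only the miR-192 and miR-21 sets passed the threshold in both tissues of this contrast with opposite signs. No test of the difference between tissues can be made from these values. The comparison of B16F10-bearing with YUMM3.3-bearing animals uses the same YUMM3.3-bearing libraries, named second, and is no separate evidence: 9 of 13 sets were negative in spleen and positive in marrow, 69.2%, against 17.3% of all listed sets.

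**Figure D4:**
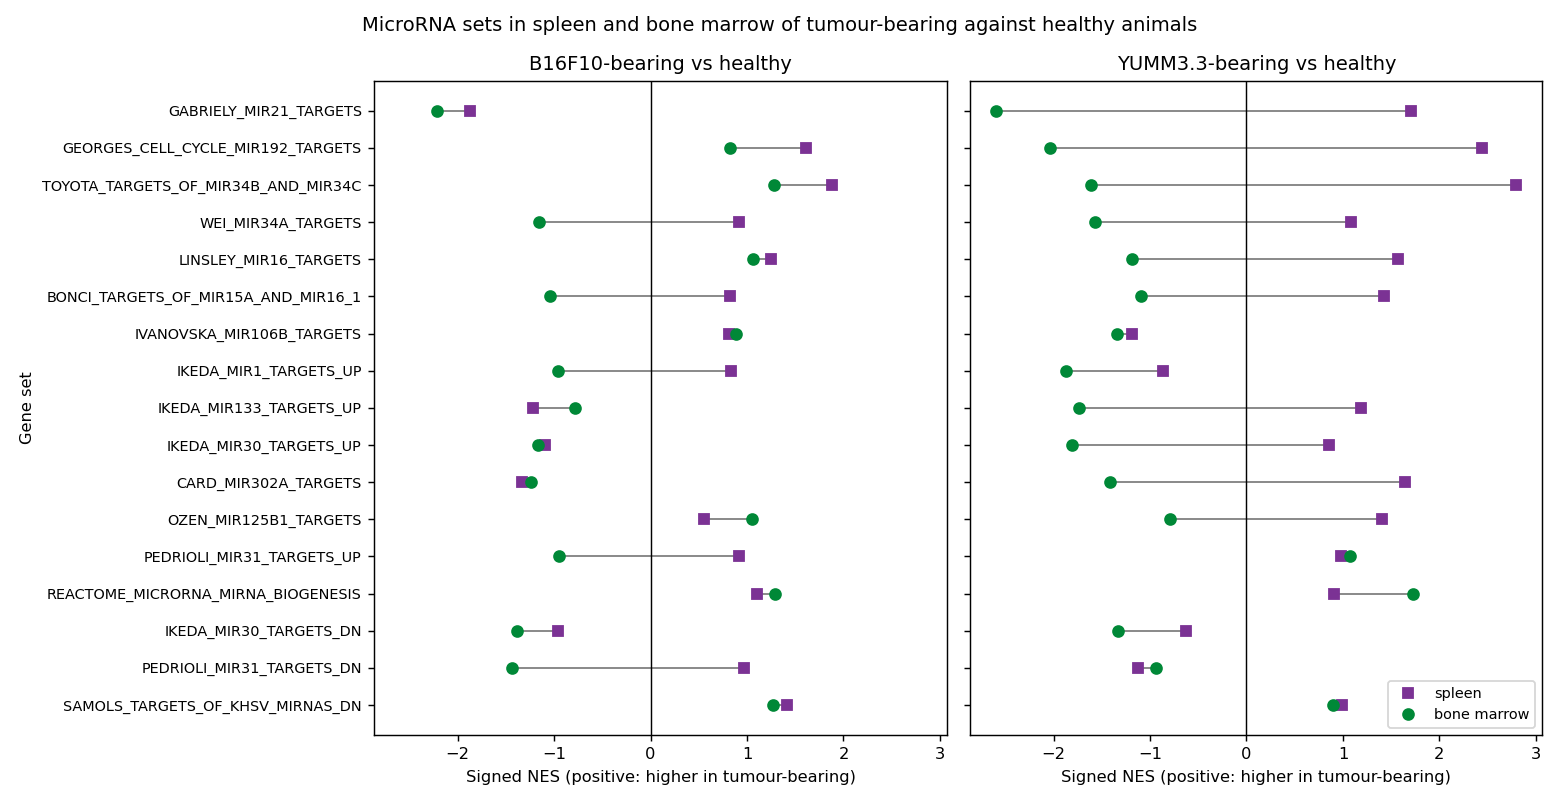
Signed NES of the 17 microRNA sets in spleen (purple squares) and bone marrow (green circles), for B16F10-bearing (left) and YUMM3.3-bearing (right) against healthy animals, from the authors' deposited table; lines join the 2 tissues of a set. On the right, 10 of the 13 target sets (upper rows) have the square above 0 and the circle below 0, against 4 of 13 on the left.

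The biogenesis set is no target set: REACTOME_MICRORNA_MIRNA_BIOGENESIS holds 18 genes of the microRNA pathway itself. In marrow it went against the target sets. The authors' deposited table placed it higher in YUMM3.3-bearing than in healthy marrow (NES 1.72, q = 0.0235) and lower in B16F10-bearing than in YUMM3.3-bearing marrow (NES -1.77, q = 0.0187), with 50% of its genes in the leading edge each time. For B16F10-bearing against healthy marrow it scored 1.29 (q = 0.186), and in the 3 spleen comparisons and the cell lines its scores lay between -0.58 and 1.11 with none passing.

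A list of 9 sets was taken by names for small RNA silencing or messenger RNA decay. They are not all microRNA machinery: nonsense-mediated decay, Piwi-interacting RNA biogenesis and stability through AU-rich elements are among them. In B16F10-bearing against healthy marrow 5 of the 9 were higher and 0 lower, beside 20.1% and 5.00% of all listed sets. In YUMM3.3-bearing against healthy marrow 6 were higher and 0 lower, beside 9.68% and 6.52%. For B16F10-bearing against YUMM3.3-bearing marrow 0 were higher and 6 lower, beside 8.09% and 8.40%. Their median NES in those comparisons was 1.71, 2.03 and -1.93, beside 0.96, 0.74 and 0.72 over all listed sets. In spleen 4 were higher in YUMM3.3-bearing than in healthy animals, beside 15.6%, and none of the 9 passed in the other 2 spleen comparisons, where 16.6% and 9.63% of all listed sets were higher. In the cell lines 2 were higher in YUMM3.3 cells, beside 11.8%.

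Within that list, REACTOME_GENE_SILENCING_BY_RNA was higher in B16F10-bearing marrow (NES 1.85, q = 0.00728), YUMM3.3-bearing marrow (NES 2.28, q listed as 0) and YUMM3.3-bearing spleen (NES 1.91, q = 0.00215), each against healthy tissue, in the authors' deposited table. REACTOME_TRANSCRIPTIONAL_REGULATION_BY_SMALL_RNAS was higher in the same 3 comparisons, with NES of 2.17 (q = 0.000183), 2.44 (q listed as 0) and 1.93 (q = 0.0016). Both sets also passed in B16F10-bearing against YUMM3.3-bearing marrow. They were lower there, with NES of -2.18 (q = 0.000181) for gene silencing and -2.34 (q listed as 0) for transcriptional regulation. Nonsense-mediated decay, which destroys messages with early stop codons and does not depend on microRNAs, has 2 sets in the list, both known to hold many ribosomal protein genes. In YUMM3.3-bearing against healthy marrow they scored 3.01 and, for the branch independent of the exon junction complex, 3.09, in the authors' deposited table. In B16F10-bearing against YUMM3.3-bearing marrow they scored -2.96 and -3.13, again with q listed as 0.

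Deadenylation, the step that microRNAs bring on, has 2 sets in the list. REACTOME_DEADENYLATION_OF_MRNA, removal of the poly(A) tail, passed in none of the 7 comparisons and scored -1.18 in YUMM3.3-bearing against healthy marrow (q = 0.355) and 1.28 in YUMM3.3-bearing against healthy spleen (q = 0.244). REACTOME_DEADENYLATION_DEPENDENT_MRNA_DECAY passed once, higher in YUMM3.3-bearing than in healthy spleen (NES 1.62, q = 0.034) in the authors' deposited table. TING_SILENCED_BY_DICER, genes that rise when Dicer is disrupted in human colon cancer cells, passed nowhere and ran between -1.23 and 1.30.

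Target sets of other regulators give a further background. Among the 579 other sets with TARGETS in their name in the animal comparisons, mostly targets of transcription factors, 27 (4.66%) were higher and 35 (6.04%) lower in YUMM3.3-bearing against healthy marrow, beside 9.68% and 6.52% of all listed sets. Their median NES was 0.80, with 57.5% positive, where the 13 microRNA target sets had a median of -1.57, with 7.69% positive. For YUMM3.3-bearing against healthy spleen the other target sets had 92 (15.9%) higher and 40 (6.91%) lower, beside 15.6% and 5.31% of all listed sets. Their median there was -0.83, though their signs were near an even split, with 48.2% positive. The microRNA target sets had a median of 1.40, with 84.6% positive. For B16F10-bearing against healthy spleen 128 (22.1%) were higher and 5 (0.864%) lower, beside 16.6% and 1.60% of all listed sets. Their median was 1.26, where the microRNA target sets had 1 higher and 1 lower and a median of 0.82.

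The miR-21 set had the widest spread of the target sets over the 7 comparisons, 4.88 NES units from lowest to highest. Among the 3867 other sets compared, those whose signed NES followed it most closely over the 7 comparisons were LAIHO_COLORECTAL_CANCER_SERRATED_DN and KEGG_NON_SMALL_CELL_LUNG_CANCER, each with a Pearson's r of 0.998, and CHIANG_LIVER_CANCER_SUBCLASS_UNANNOTATED_UP, with 0.997. Their scores were smaller, from -1.61 to 1.43 for the colorectal set in the authors' deposited table. The 7 points share libraries, so the likeness is a description of these comparisons.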

How the data were processed

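Per the labels, total RNA from myeloid cells and melanoma lines was sequenced, 20 libraries in all. The submitters' processing notes name FastQC 0.11.8, STAR 2.7.1a, featureCounts 1.6.0, DESeq2 1.22.2 and mm10; their roles, and the enrichment program with its settings, are not stated in the sources here. The authors deposited 14 enrichment reports, 2 for each of 7 comparisons. Per the file headers each holds, for every set, the enrichment score and normalized enrichment score, the nominal p-value, FDR q-value and family-wise p-value, and the leading edge in percent. No value per library or gene was used, so no SD, test or depth can be given. Apart from those listed as 0, nominal p-values go down to 0.00103, smaller than relabelling 2 or 3 libraries a group can give. The deposited p-values and q-values therefore do not come from relabelled libraries and do not carry the spread between them.

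Scores were signed with python 3.11.15 and pandas 2.3.3. The group named first in a myeloid report was taken as the one in which its sets were higher, and the cell line reports by their up and down labels. A joint reversal of all comparisons of a tissue would go unseen. The counting was tested on simulated data. Sets named with values are those with q below 0.05 anywhere, the 3 largest scores per side and comparison, and sets sharing a seed. The members and lists were chosen with earlier results of these data known. Alternatives were other thresholds, set sizes of 25 to 200 genes, numbered microRNAs only, 1 set per publication, and DN sets counted with the rest.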

Additional observations from a re-analysis of the deposited data

How the results depend on the processing

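Among the alternative values, 94 stayed within the tolerance and 32 moved. Values left out below stayed within it. Most of these values are counts, some of them 0 under both settings. Only the medians could change sign, and none of them did. Counts at other thresholds are of the 14 sets. The shares of all listed sets at those thresholds were not taken, so these counts have no background here. At q below 0.25 the sets higher became 2 in B16F10-bearing against healthy marrow, 2 in B16F10-bearing against healthy spleen and 6 in the cell lines. Those lower became 9 in YUMM3.3-bearing against healthy marrow, 3 in B16F10-bearing against YUMM3.3-bearing spleen and 1 in the cell lines. At q below 0.01, YUMM3.3-bearing against healthy marrow had 0 higher and 2 lower, B16F10-bearing against YUMM3.3-bearing marrow 2 higher and 0 lower, B16F10-bearing against healthy spleen 0 lower, YUMM3.3-bearing against healthy spleen 2 higher and the cell lines 0 higher. At family-wise p below 0.05, YUMM3.3-bearing against healthy marrow had 0 higher and 1 lower, B16F10-bearing against YUMM3.3-bearing marrow 1 higher and 0 lower, B16F10-bearing against healthy spleen 0 higher and 0 lower, YUMM3.3-bearing against healthy spleen 2 higher and the cell lines 0 higher. Sets of 25 to 200 genes only left 10 sets, without the miR-21, miR-34b/c and miR-125b1 sets and the biogenesis set. Shares beside these counts are of all listed sets of that size. B16F10-bearing against healthy marrow had 0 lower, beside 5.46%. YUMM3.3-bearing against healthy marrow had 0 higher, beside 11.5%, and 4 lower, beside 6.71%. B16F10-bearing against YUMM3.3-bearing marrow had 4 higher, beside 8.57%, and 0 lower, beside 9.51%. B16F10-bearing against healthy spleen had 0 higher and 0 lower, beside 18.1% and 1.63%. YUMM3.3-bearing against healthy spleen had 3 higher, beside 16.9%, and B16F10-bearing against YUMM3.3-bearing spleen 0 lower, beside 1.44%. Numbered microRNAs only left 13 sets, without the biogenesis set. YUMM3.3-bearing against healthy marrow then had 0 higher, beside 9.68% of all listed sets. B16F10-bearing against YUMM3.3-bearing marrow had 0 lower, beside 8.40%. With 1 set per publication, which left 12 sets, YUMM3.3-bearing against healthy marrow had 3 lower, beside 6.52% of all listed sets. The median NES of B16F10-bearing against healthy marrow was then -0.0614, against -0.86 over the 14 sets. Of the 25 called pairs, 9 stayed at q below 0.01 and 6 at family-wise p below 0.05. No paired analysis was possible because each gene set has 1 deposited value in a comparison; no replicate could be left out in turn for that reason.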
